A study of Mus musculus with 12 samples.

Results

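The zone dependence of the fasting response is the change that 24 h of fasting made in pericentral (PC) hepatocytes of the mouse liver minus the change it made in periportal (PP) hepatocytes. It was taken for every expressed gene as (fasted PC minus fed PC) minus (fasted PP minus fed PP) on the log2 scale. A positive value is a larger rise, or a smaller fall, in PC. All 12 libraries of the series entered this contrast, and 12086 of the 28030 listed genes had enough counts to be tested. The contrast covers all of these genes, with no choice by how they responded. The libraries fall into 4 groups of 3, named by feeding state and zone: fed PC, fed PP, fasted PC and fasted PP. Every animal was a wild-type (WT) female of 12 weeks on normal chow. All groups had been trained for 3 days to 16 h without and 8 h with food in each day, and all received drinking water with 20% sucrose beside their food on the day of the experiment. Fed mice were killed 4 h into that feeding. Fasted mice had food and sucrose removed and were killed 24 h later, at the same clock time. Digitonin, a detergent, stands in the labels of both zones, and its use to remove the hepatocytes of the other zone is background. The labels call the libraries biological replicates. Whether PC and PP libraries of equal number share a mouse, and whether mice were pooled, is not given there, so the p-values rest on the spread of these libraries alone.

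Blood enters the liver lobule at the portal tract and leaves at the central vein, and hepatocytes along this path divide the work of the liver. Periportal cells are known for gluconeogenesis, urea synthesis and amino acid breakdown, and pericentral cells for glutamine synthesis, glycolysis, lipid synthesis and drug metabolism, many of their genes being kept on by Wnt signals from the central vein. Fasting lowers insulin and raises glucagon and glucocorticoids, which turn lipid and sugar synthesis genes down and gluconeogenic and fatty acid oxidation genes up.

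The zone labels held in the markers, with 1 library apart. Summed over 26 pericentral marker genes, fed PC libraries held 21387 to 22527 CPM (counts scaled to the library size by trimmed means of M values) and fed PP libraries 2467 to 3896. Fasted PP libraries held 1526 to 2697, and fasted PC replicates 1, 2 and 3 held 17740, 31381 and 27591. Fasted PC replicate 1 was the lowest PC library in pericentral markers and, at 24540 CPM, the highest PC library in 27 periportal markers. Counts of calls and part of the values of the zone dependence are therefore also given without it. A value of the zone dependence given alone rests on all 12 libraries, so its change without that library is not stated. The sample quality weight of fasted PC replicate 1 in limma was 0.45, the lowest of the 12. Totals were 16245846 to 27449412 estimated counts per library. Summed markers of other cells were low: 12 Kupffer cell genes reached 11.7 CPM, 13 sinusoidal endothelial genes 38.5, 12 stellate cell genes 24.3, 8 cholangiocyte genes 58.2 and 12 leukocyte genes 9.16, against 105730 to 192290 CPM for 10 hepatocyte genes. Summed over 6 erythrocyte genes, fasted PC replicate 2 held 440.7 CPM, fasted PP replicate 3 held 148.0, and 5.10 to 47.5 was found in the other libraries. The part of these cells in any result was not tested. In bulk samples such as these, fewer cells of a type and less RNA per cell cannot be told apart.

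**Figure D1:**
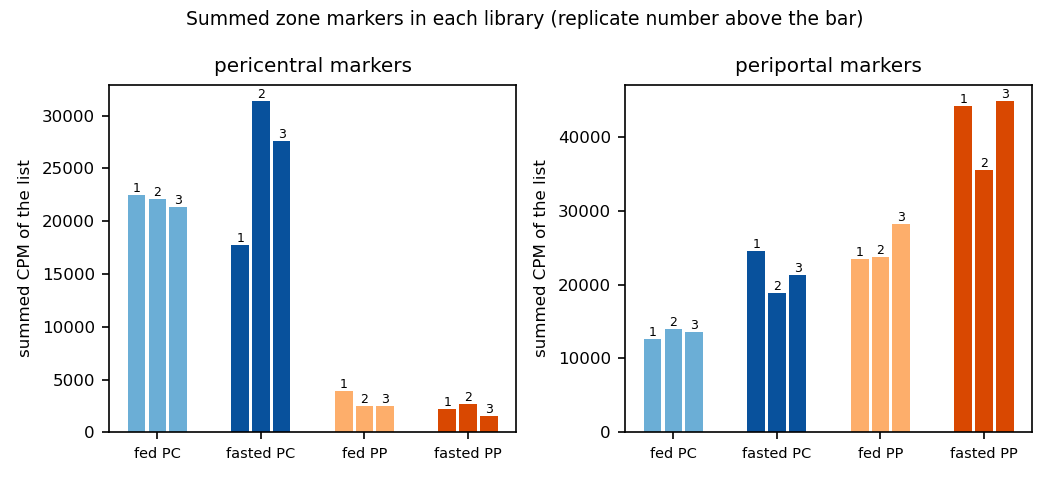
Summed CPM (y axis) of 26 pericentral marker genes (left) and 27 periportal marker genes (right) in each of the 12 libraries, grouped by feeding state and zone on the x axis, with the replicate number above each bar. Fasted PC replicate 1 stands at 17740 CPM in the pericentral panel, under the 27591 and 31381 CPM of the other fasted PC libraries.

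No gene passed the threshold for zone dependence. Of 12086 genes, 0 (0%) were called at an edgeR adjusted p under 0.05, and 465 (3.85%) had an unadjusted p under 0.05, 263 with a higher response in PC (2.18%) and 202 with a lower one (1.67%). By the same count DESeq2 called 11 genes (492 unadjusted) and limma voom 0 (459 unadjusted). Without fasted PC replicate 1 edgeR called 2 of 12396 genes (0.0161%), Slc1a2 and Spry4, and 914 (7.37%) had an unadjusted p under 0.05. Leaving out each of the other libraries gave 0 calls. The gene with the smallest adjusted p over all libraries, at 0.0878 in edgeR, was Cabyr, a calcium-binding protein known from sperm tails, named here after its values were seen.

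Cabyr was a low gene whose order of zones turned with fasting. Fed PC libraries held 0.36, 0.24 and 0.15 CPM and fed PP libraries 1.02, 0.70 and 0.83. Fasted PC libraries held 3.14, 1.93 and 3.71 CPM and fasted PP libraries 0.35, 0.40 and 0.64. PC lay below PP in all fed libraries and above it in all fasted ones. Fed and fasted libraries of each zone did not overlap, as in 41.7% of all genes in PC and 34.6% in PP. Its zone dependence was 4.42 ± 0.61 (log2, SE; 95% interval 3.10 to 5.73), and 4.34 without fasted PC replicate 1 (edgeR adjusted p = 0.091). Cabyr was the 1 gene called by edgeR when no filter on low counts was used (adjusted p = 0.026). DESeq2 called it too (adjusted p = 9.5e-06), and limma voom, with or without sample quality weights, did not. Cabyr was picked by its small p and these settings reuse the same libraries, so their calls are no support. Its value may overstate the difference.

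The intervals of the zone dependence show which sizes the data allow. The 95% interval reached a median of 0.58 log2 units to either side of the value over all genes, 1.92 for the 1526 genes under 1 CPM, 0.83 for 3707 genes at 1 to 10 CPM, 0.44 for 5541 genes at 10 to 100 CPM and 0.42 for 1312 genes over 100 CPM. For 7442 genes (61.6%) the whole interval lay within 1 log2 unit of 0, and among genes at 10 to 100 CPM for 88.2%. For 1845 genes (15.3%) it reached past 2 log2 units on at least 1 side, among them 77.1% of the genes under 1 CPM. In simulated data with the fitted spread of each gene, edgeR called 70.3% of 64 genes with a 4-fold zone dependence. At 2-fold it called 23.9% of 67 genes and at 1.5-fold 1.56% of 64, among 11878 genes in the fit. There were 4 false calls, and intervals covered the set value for 89.1% of genes at 4-fold, 95.5% at 2-fold and 93.8% at 1.5-fold. Each simulated library was drawn around its group mean, so none stood apart as fasted PC replicate 1 does.

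Fasting changed many genes in each zone, and largely in the same direction. In PC, edgeR called 2582 genes (21.4%), 1345 higher (11.1%) and 1237 lower (10.2%) after fasting. In PP it called 2162 genes (17.9%), 1014 higher (8.39%) and 1148 lower (9.5%). These 2 comparisons share no library. Leaving out 1 library gave 1593 to 2618 calls in PC, the lowest without fed PC replicate 3 and 1664 without fed PC replicate 2, and 1405 to 2414 calls in PP, the lowest without fed PP replicate 2. Of the genes called in both zones, 764 rose in both, 780 fell in both and 1, Abcc3, was called in opposite directions. Without fasted PC replicate 1, 3 genes were called in opposite directions, Slc1a2, Spry4 and Zfp131, the last named after its values were seen, and Abcc3 was not among them. The 1545 shared genes were 59.8% of the PC calls and 71.5% of the PP calls.

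Genes called in only 1 zone mostly had the same sign in the other zone. Of 1037 genes called in PC and not in PP, 1004 (96.8%) had the same sign in PP, and 486 of them an unadjusted p under 0.05 there. Of 617 genes called in PP and not in PC, 593 (96.1%) had the same sign in PC, and 263 of them an unadjusted p under 0.05. Over all genes tested the share of equal signs was 78.9%. Among 8352 genes whose mean was 5 CPM or more, Pearson's r between the log2 fold changes of the zones was 0.864 and Spearman's rho 0.817, across genes, which are not independent replicates. The SD of the fold changes over these genes was 0.60 in PC and 0.57 in PP, and that of their difference 0.31. Without fasted PC replicate 1, where 20.1% of genes were called in PC and 19.5% in PP, r was 0.828 and the SD of the difference 0.35.

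Responses called in both zones had close medians. Of the 1544 genes called in both zones in 1 direction, 1208 (78.2%) had an interval of the zone dependence within 1 log2 unit of 0. Of all genes tested, 61.6% had such an interval. The bound is wider than the medians that follow, so it also allows a difference as large as the response. Choosing genes by calls in both zones also favours similar responses. Genes that rose in both had a median log2 fold change of 0.80 in PC and 0.76 in PP, and 474 of the 764 had the larger rise in PC. Genes that fell in both had medians of -0.85 and -0.81, and 426 of the 780 had the larger fall in PC. Without fasted PC replicate 1 those shares were 475 of 717 and 502 of 754. Several of the largest changes were called in both zones. Pnpla3, a lipase of lipid droplets, fell, with log2 fold changes of -6.31 in PC and -5.68 in PP (edgeR adjusted p = 0.0031 and 0.0039). Slc34a2, a phosphate transporter, fell, with log2 fold changes of -5.32 in PC and -5.11 in PP (0.0046 and 0.0041), and Mt2, a metallothionein with the close paralog Mt1, rose by 5.53 and 5.35 (0.00069 and 0.00091). Cdkn1a, the cell cycle inhibitor p21, rose by 3.99 and 3.61 (0.0043 and 0.0063).

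**Figure D2:**
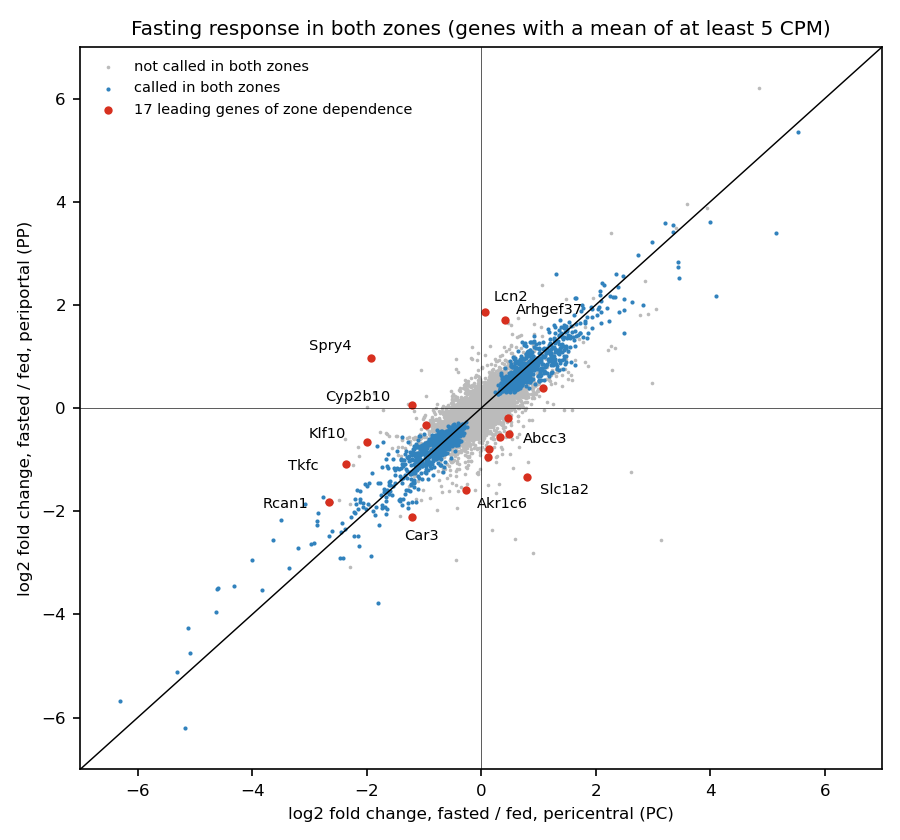
Log2 fold change of fasting in PC (x axis) against that in PP (y axis) for genes averaging 5 CPM or more, with genes called in both zones in blue, the 17 leading genes of zone dependence in red and the line of equal response in black (1 gene lies outside the axes). Most genes lie along the line, with Pearson's r at 0.864, and Spry4, Lcn2, Tkfc and Slc1a2 lie away from it.

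The zones could equally be compared within each feeding state. PC and PP differed in 570 genes (4.72%) in fed mice and in 774 genes (6.4%) in fasted mice by edgeR, and 391 genes were called in both states. Only Cabyr was called in both with opposite signs (-1.75 fed and 2.66 fasted), and no gene was without fasted PC replicate 1, where the fed call of Cabyr ended (edgeR adjusted p = 0.052). Over the 8352 genes at 5 CPM or more, r between the zone differences of fed and fasted mice, which share no library, was 0.836. Leaving out 1 library gave 292 to 701 calls in fed mice, the lowest without fed PC replicate 2, and 386 to 1005 in fasted mice, the lowest without fasted PC replicate 2.

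The 17 leading genes described next are Slc1a2 and Spry4, called without fasted PC replicate 1, and the 8 genes per direction with the smallest unadjusted p at 5 CPM or more, Spry4 among them. By edgeR none of the 17 was called over all 12 libraries (adjusted p = 0.997 for each). DESeq2 called Spry4, Tkfc, Akr1c19, Abcc3, Lcn2, Ttc23 and Akr1c6 over the same libraries (adjusted p = 0.0015 to 0.046). Spry4 was also called by limma voom with sample quality weights (0.042). In 24 alternative settings none of the 17 changed sign. The genes were picked by small p in these data and the settings reuse the same libraries. The kept signs and these calls are therefore no support. Values of genes so picked may overstate the difference. Akr1c6, Akr1c19, Cyp2b10 and Aox3 have close paralogs, between which estimated counts are divided by a model, so their values are uncertain.

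Slc1a2 encodes a glutamate transporter that pericentral hepatocytes use to take up glutamate for glutamine synthesis. Fed PC libraries held 211.3, 232.4 and 244.0 CPM and fasted PC libraries 13.1, 633.8 and 552.4. Fed PP libraries held 1.54, 2.30 and 3.43 CPM and fasted PP libraries 1.15, 0.75 and 0.96. Fasted PC replicates 2 and 3 lay above every fed PC library and replicate 1 far below them, while fasted PP lay below fed PP without overlap. Its zone dependence was 2.14 (95% interval -1.50 to 5.78; unadjusted p = 0.22) with all libraries and 2.69 (1.94 to 3.43; edgeR adjusted p = 0.034) without fasted PC replicate 1, where the gene rose by 1.35 in PC (adjusted p = 0.0012) and fell in PP (0.0070). That fit leaves 2 fasted PC libraries. Slc1a2 is itself among the 26 pericentral markers whose low sum set the library apart, so its call without that library is not independent of the choice to leave it out. Slc1a2 was also called when the 4 libraries numbered 1 were left out (3.03, edgeR adjusted p = 0.036), a setting added after the data were seen. Its adjusted p over all alternatives ran from 0.034 to 1. The gene spans chromosome 2 from 102658659 to 102790784 on GRCm38.

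The RefSeq promoter sequences of Slc1a2 and of Tkfc, 1 of the leading genes in each direction, are printed to show what stands at their starts. Each runs from 250 bases before to 50 bases after the start in GRCm38.p6, 5′ to 3′ along the gene, and both windows lie inside the span that GENCODE gives the gene, so other starts are not covered. Capitals mark matches to CTTTGA or its reverse complement TCAAAG, the core letters bound by TCF/LEF factors, which carry Wnt signals to DNA.
Slc1a2, chr2:102706188-102706487, plus strand: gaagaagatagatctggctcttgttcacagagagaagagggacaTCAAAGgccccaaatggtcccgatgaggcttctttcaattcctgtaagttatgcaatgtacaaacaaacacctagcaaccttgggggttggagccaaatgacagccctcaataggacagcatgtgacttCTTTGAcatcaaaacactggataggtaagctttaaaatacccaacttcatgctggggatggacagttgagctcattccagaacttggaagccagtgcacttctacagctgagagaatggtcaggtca
Tkfc, chr19:10604209-10604508, minus strand: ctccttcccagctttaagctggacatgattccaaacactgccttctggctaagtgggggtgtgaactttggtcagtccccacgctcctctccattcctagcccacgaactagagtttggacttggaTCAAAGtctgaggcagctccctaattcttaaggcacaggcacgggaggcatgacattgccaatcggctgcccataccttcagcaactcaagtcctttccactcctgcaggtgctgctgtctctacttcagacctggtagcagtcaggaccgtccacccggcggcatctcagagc
The Slc1a2 window holds 2 such matches and the Tkfc window 1, and neither holds CACGTG, the E-box letters bound by clock factors among others, or the FoxO letters TGTTTAC, on either strand. No match overlapped another. Of 32851 RefSeq promoters of the same length, 16.0% hold at least 1 TCF/LEF match, 7.15% the E-box and 3.65% the FoxO letters. RefSeq promoters were found for 10 of the 17 leading genes.

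Spry4, a Sprouty protein that restrains signalling from growth factor receptors to the MAP kinases, differed between the zones after fasting. Fed PC libraries held 6.61, 6.47 and 6.56 CPM and fed PP libraries 7.42, 5.73 and 6.29. Fasted PC libraries held 3.19, 0.36 and 1.55 CPM and fasted PP libraries 13.6, 13.2 and 11.1. The zones overlapped in fed mice and were far apart in fasted mice, where the PC libraries also spread widely. Spry4 fell by 1.92 in PC (edgeR adjusted p = 0.0096) and had a log2 fold change of 0.96 in PP (0.12). The zone dependence was -2.88 (95% interval -4.17 to -1.59; unadjusted p = 0.00042), and -3.74 (-4.73 to -2.75; edgeR adjusted p = 0.034) without fasted PC replicate 1. DESeq2 (adjusted p = 0.0015) and limma voom with sample quality weights (0.042) also called it. The range of its adjusted p over all alternatives was 0.0015 to 1.

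Abcc3 was the 1 gene called in opposite directions by fasting in the zones with all libraries. It encodes an exporter of bile acid and drug conjugates on the blood side of the hepatocyte, and spans chromosome 11 from 94343295 to 94392997. Fed PC libraries held 462.0, 414.0 and 384.5 CPM and fasted PC libraries 574.7, 686.9 and 495.4. Fed PP libraries held 429.2, 396.0 and 552.5 CPM and fasted PP libraries 306.5, 364.1 and 298.1. Every fasted PC library lay above every fed PC library and every fasted PP library below every fed PP library. Groups of 3 did not overlap in 41.7% of all genes for fasting in PC and in 34.6% for fasting in PP. Abcc3 rose by 0.48 ± 0.16 in PC and fell by 0.51 in PP (log2, SE 0.16 in both; edgeR adjusted p = 0.046 and 0.041). The PC call ended on leaving out any of 10 of the 12 libraries (adjusted p up to 0.18) and the PP call for 7 of them (up to 0.165). The zone dependence of 0.99 (95% interval 0.51 to 1.47; unadjusted p = 0.00071) was 0.98 without fasted PC replicate 1, and 0.81 to 1.07 over the alternatives, with adjusted p from 0.042 to 1.

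Further genes had a higher response in PC. Akr1c6, a steroid dehydrogenase of the aldo-keto reductases, stood at 835 ± 41.1 CPM (SD, n = 3) in fed PC and 695 ± 160 in fasted PC, groups that overlapped, and at 212 ± 41.8 in fed PP and 70.9 ± 19.9 in fasted PP, groups that did not. It fell by 1.58 in PP (edgeR adjusted p = 0.00082) and had -0.26 in PC, a zone dependence of 1.32 (95% interval 0.63 to 2.00). Its relative Akr1c19 stood at 90.3 ± 5.84 CPM in fed PC, 124.9 ± 10.2 in fasted PC, 114.1 ± 10.7 in fed PP and 99.6 ± 4.88 in fasted PP (SD, n = 3). It rose by 0.47 in PC (edgeR adjusted p = 0.0067) and had -0.20 in PP (0.21), and neither pair of groups overlapped.

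Other genes of this direction moved in different ways. Aox3, an aldehyde oxidase, fell by 0.95 in PP (edgeR adjusted p = 0.011), and Stbd1, which tethers glycogen to membranes, fell by 0.80 (0.0064), while both overlapped between fed and fasted PC. Their zone dependence was 1.07 (95% interval 0.41 to 1.74) and 0.94 (0.43 to 1.45). Car3, a carbonic anhydrase abundant in pericentral cells, fell from 1552 ± 257 to 673 ± 93.9 CPM in PC and from 549 ± 68.7 to 126.9 ± 26.7 in PP (SD, n = 3), log2 fold changes of -1.21 and -2.11. Anapc5, a subunit of the anaphase-promoting complex, fell by 0.56 in PP (edgeR adjusted p = 0.035), and 4 left-out PP libraries each ended this call, fed replicates 2 and 3 and fasted replicates 1 and 3 (0.055 to 0.13). Mcc, a gene linked to colorectal cancer, rose by 1.08 in PC (edgeR adjusted p = 0.00029) and had 0.40 in PP (0.064).

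Tkfc had the smallest unadjusted p (0.00054) after Spry4 among the leading genes with a lower response in PC. It encodes triokinase, the enzyme that phosphorylates glyceraldehyde from fructose, and lies on chromosome 19 from 10587791 to 10605654. Fed PC libraries held 835.6, 1119 and 1280 CPM and fed PP libraries 927.5, 1114 and 1318. Fasted PC libraries held 157.0, 242.2 and 229.0 CPM and fasted PP libraries 469.5, 549.3 and 565.4. The zones overlapped in fed mice, and after fasting every PC library lay below every PP library. Tkfc fell, with log2 fold changes of -2.37 in PC and -1.08 in PP (edgeR adjusted p = 2.9e-05 and 0.0029), and its zone dependence was -1.28 (95% interval -1.88 to -0.68), or -1.14 without fasted PC replicate 1. Over the alternatives its value ran from -1.44 to -1.14 and its adjusted p from 0.016 to 1, the lowest in DESeq2.

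Rcan1, Klf10 and Ttc23 also had a negative zone dependence. Rcan1, an inhibitor of the phosphatase calcineurin, fell from 79.3 ± 9.10 to 12.6 ± 2.28 CPM in PC and from 67.1 ± 2.84 to 19.0 ± 1.71 in PP (SD, n = 3). Its log2 fold changes were -2.65 and -1.82 (edgeR adjusted p = 5.6e-07 and 1.1e-05), and no group overlapped its counterpart. Klf10, a zinc finger transcription factor induced by growth factors and sugar, stood at 35.4, 57.0 and 48.4 CPM in fed PC and at 10.5, 10.1 and 14.9 in fasted PC. In PP it stood at 41.4, 61.6 and 54.5 CPM in fed and at 42.6, 32.7 and 24.6 in fasted libraries, which overlapped. Klf10 fell by 1.99 in PC (edgeR adjusted p = 0.00033) and had -0.66 in PP (0.077). Ttc23 fell by 0.97 in PC (edgeR adjusted p = 9.8e-05) and by 0.32 in PP (0.042), the latter a call that ended on leaving out any of 11 of the 12 libraries.

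Cyp2b10, Lcn2 and Arhgef37 parted in other ways. Cyp2b10, the drug-metabolising P450 induced through the receptor CAR, stood at 29.5, 33.1 and 30.2 CPM in fed PC and at 16.5, 8.13 and 15.5 in fasted PC. In PP its fed libraries (39.3, 36.1 and 49.0 CPM) overlapped its fasted ones (55.2, 38.9 and 34.8). It fell by 1.21 in PC (edgeR adjusted p = 0.0050) and had 0.05 in PP. Lcn2, lipocalin 2, an iron-carrier-binding protein of the acute phase, stood at 3.16, 3.06 and 5.54 CPM in fed PC and 3.30, 3.73 and 5.16 in fasted PC. It stood at 7.55, 4.18 and 5.41 CPM in fed PP and at 15.1, 24.3 and 23.4 in fasted PP, clear of every other library. Lcn2 rose by 1.87 in PP (edgeR adjusted p = 0.0012), with 0.06 in PC and a zone dependence of -1.81 (95% interval -2.71 to -0.90). Arhgef37 rose by 1.70 in PP (edgeR adjusted p = 0.00054), from 6.05 ± 1.11 to 19.7 ± 5.15 CPM (SD, n = 3), and had 0.42 in PC (0.20).

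**Figure D3:**
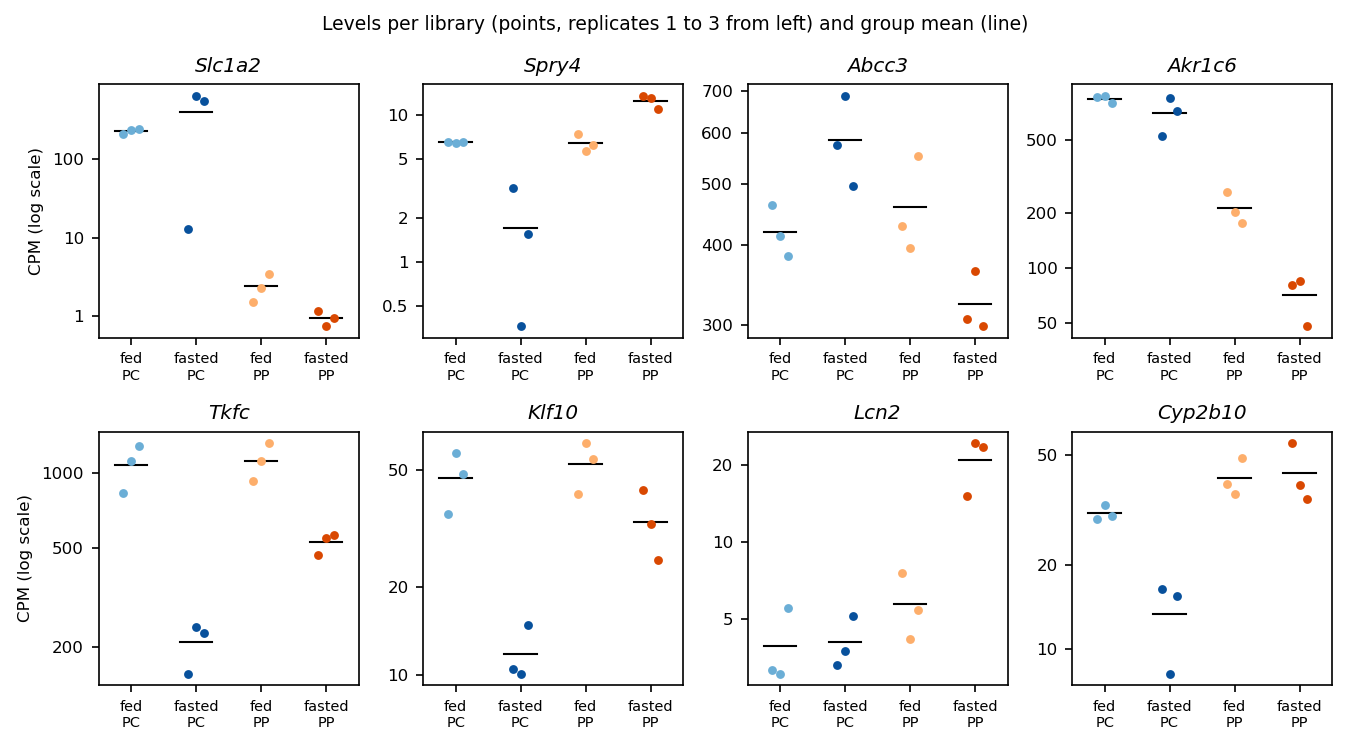
CPM on a log axis (y) in the 3 libraries of each group (x axis) for 8 leading genes, with points for replicates 1 to 3 from left to right and a line at the group mean. Fasted PC replicate 1 of Slc1a2 stands at 13.1 CPM against 633.8 and 552.4 for its group, and fasted PP libraries of Lcn2 (15.1 to 24.3 CPM) lie above all others.

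Several genes of sugar breakdown fell in each zone. Over all genes tested the median log2 fold change was near 0 in both zones (0.0042 in PC and 0.0049 in PP). The median zone dependence was 0.016, with 52.3% of genes above 0. By edgeR 11.1% of all genes were called higher and 10.2% lower in PC, and 8.39% higher and 9.5% lower in PP. Counts of called list members, here and below, stand beside these shares. Of 19 genes of glycolysis and fructolysis, 8 fell in PC and 5 in PP, and none rose. Their median fold changes were -0.42 and -0.14, and 16 of the 19 had a zone dependence below 0 (3 above). Without 1 library the counts were 6 to 8 in PC, and in PP 3 to 6, with 3 without fed PP replicate 2. No member was called for zone dependence, and 3 had an unadjusted p under 0.05, against 3.85% of all genes. Tkfc had the smallest p of the list. Of 14 glycogen genes, 3 rose and 4 fell in PC, and 4 rose and 2 fell in PP. Without fed PC replicate 2 the rising genes were 0 in PC and 1 in PP, and without fed PP replicate 3 none fell in PP. Pygl, liver glycogen phosphorylase, fell by 1.08 in PC (edgeR adjusted p = 0.0023) and had -0.59 in PP (0.051), with a zone dependence of -0.49 (95% interval -1.07 to 0.10).

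Lipid synthesis genes fell in both zones by nearly equal medians. Of 24 tested genes of de novo lipogenesis, 15 fell in PC and 16 in PP, with medians of -2.11 and -2.02, and none rose. The counts ran from 11 to 16 and from 11 to 17 when 1 library was left out. Fasn, fatty acid synthase, fell, with log2 fold changes of -5.12 in PC and -4.26 in PP (edgeR adjusted p = 0.00018 and 0.00044), and its interval of zone dependence ran from -2.22 to 0.49. Srebf1, whose product drives these genes, fell, with log2 fold changes of -2.98 in PC and -2.63 in PP (0.00028 and 0.00061; interval -1.35 to 0.65). Mid1ip1, an activator of acetyl-CoA carboxylase, fell, with log2 fold changes of -4.01 in PC and -2.94 in PP, and its zone dependence of -1.07 (unadjusted p = 0.048) was the smallest p of the list. Scd1, stearoyl-CoA desaturase, overlapped between fed and fasted libraries in each zone, from 8665 to 13640 CPM in fed PC and from 1692 to 8928 in fasted PC. Replicate 1 was the lowest of the lipogenesis sums in every group. Of 26 cholesterol genes, 13 fell in PC and 14 in PP, with medians of -0.91 and -0.84, and 9 fell in PP without fed PP replicate 3. Stard4, a cholesterol carrier, fell, with log2 fold changes of -0.43 in PC and -0.72 in PP (edgeR adjusted p = 0.010 and 0.00069; interval -0.02 to 0.60).

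Gluconeogenic genes rose in both zones. Of 15 genes, 7 rose and 1 fell in PC, and 7 rose and none fell in PP, with medians of 0.53 and 0.40 and a median zone dependence of 0.07. Without fed PP replicate 2 the 7 in PP became 4. Pck1, the enzyme that makes phosphoenolpyruvate, stood at 258.1, 80.5 and 45.1 CPM in fed PC and 4382, 4672 and 4516 in fasted PC. It stood at 1271, 791.0 and 331.6 CPM in fed PP and 8245, 6426 and 10350 in fasted PP. Every fasted library lay above every fed library of its zone, and in each state every PP library lay above every PC library. Pck1 rose by 5.14 in PC and 3.39 in PP (edgeR adjusted p = 0.0012 and 0.0078), with a zone dependence of 1.76 (95% interval -0.19 to 3.70; unadjusted p = 0.072). G6pc, which releases free glucose, rose by 1.21 and 0.94 (0.0059 and 0.023), with an interval of -0.51 to 1.03. Its PP call ended without fed PP replicate 1 or 3 or fasted PP replicate 2 (0.074 to 0.093). Ppargc1a, the coactivator PGC-1alpha, rose by 1.48 and 1.59 (0.023 and 0.018; interval -1.32 to 1.10), calls that ended without any 1 of 4 libraries in PC (adjusted p up to 0.086) and of 2 in PP (up to 0.064). Slc37a4, which carries glucose 6-phosphate into the endoplasmic reticulum, was the member with the smallest p. It fell by 0.51 in PC (edgeR adjusted p = 0.034, up to 0.13 without 1 of 5 libraries) and had 0.01 in PP.

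Genes of amino acid breakdown and the urea cycle had a median response slightly larger in PP. Of 35 genes of amino acid catabolism, 7 rose in each zone and none fell, with medians of 0.08 in PC and 0.39 in PP, and 11 had a zone dependence above 0. The 7 became 4 in PC without fed PC replicate 3 and 13 in PP without fasted PC replicate 1, where 3 also fell in PC and the median zone dependence went from -0.09 to -0.32. Amino acid breakdown is known as periportal, and fasted PC replicate 1 was set apart by high periportal markers. The list values without that library are therefore a description with no weight as support. Sds, serine dehydratase, rose by 2.83 in PC and 1.99 in PP (edgeR adjusted p = 0.012 and 0.045). The PC call ended without fed PC replicate 3 (0.053) and the PP call without any 1 of 9 libraries (up to 0.13). Its zone dependence was 0.84 with all libraries and -0.32 without fasted PC replicate 1. In that library Sds stood at 112.3 CPM, against 16.3 and 32.7 in the other fasted PC libraries. Sds is among the periportal markers whose high sum set the library apart, so the value of -0.32 is not independent of leaving it out. Kmo, kynurenine monooxygenase of tryptophan breakdown, had a zone dependence of -0.39 (95% interval -0.77 to -0.02). Of 8 urea cycle genes, 1 rose in PC and 2 in PP, and 1 had a zone dependence above 0. Asl, argininosuccinate lyase, rose by 0.82 in PP (edgeR adjusted p = 0.030) and had 0.45 in PC (0.19), and the PP call ended without fed PP replicate 1 or 2 or fasted PP replicate 1 (0.083 to 0.11).

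Targets of PPARalpha rose in part in each zone, and few genes of fatty acid oxidation were called. Of 29 tested targets of PPARalpha, the nuclear receptor that turns on fatty acid oxidation, 9 rose in PC and 8 in PP, with a median of 0.69 in both. Leaving out 1 library gave 3 to 12 in PC, the lowest without fed PC replicate 2, and 4 to 15 in PP, the lowest without fed PP replicate 2. Of 22 genes of fatty acid oxidation and ketogenesis, 4 rose in PC and 1 in PP, where 11.1% and 8.39% of all genes rose. Their medians were 0.40 and 0.22, and 15 of 22 had a zone dependence above 0. Without fed PP replicate 1, 10 rose in each zone, and without fed PC replicate 2, 1 rose in PC. Cpt1a, which admits fatty acids to mitochondria, rose from 280 ± 27.5 to 641 ± 49.8 CPM in PC and from 269 ± 28.6 to 585 ± 93.3 in PP (SD, n = 3). Its log2 fold changes were 1.19 and 1.12 (edgeR adjusted p = 0.00019 and 0.00034), and its zone dependence was 0.07 with an interval of -0.35 to 0.49. Cyp4a14, an omega-hydroxylase of fatty acids with close paralogs, had 1.46 and 1.37, not called, and a wide interval of -1.78 to 1.96. Ehhadh, of peroxisomal oxidation, had 0.66 in PC, not called, and a zone dependence of 0.66 (-0.23 to 1.56). Fgf21, a fasting hormone of the liver, was low at 0.26 to 8.11 CPM. It had log2 fold changes of -0.89 in PC and -1.24 in PP, not called, and an interval of zone dependence of -2.26 to 2.96.

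The values of zone markers changed with fasted PC replicate 1. Of 26 pericentral markers, 2 rose and none fell in PC, and 3 fell and none rose in PP, with medians of -0.19 and -0.70. Their zone dependence was above 0 in 25 of 26, with a median of 0.59, and 2 had an unadjusted p under 0.05. Without fasted PC replicate 1 the median was 0.91, 7 had an unadjusted p under 0.05 and 1, Slc1a2, was called. That library is set apart by the low level of these same markers, so leaving it out raises their summed level in fasted PC by construction, and the larger values are a description with no weight as support. The counts in PC ran from 0 to 5 rising genes, with 5 without fasted PC replicate 1, where 5 also fell in PP. Glul, glutamine synthetase, stood at 1372, 1960 and 2171 CPM in fed PC and 172.0, 3639 and 2353 in fasted PC, against 49.3 to 173.4 in PP. Its zone dependence was 0.75 (95% interval -1.85 to 3.34), and 1.27 (-0.02 to 2.55) without fasted PC replicate 1. Oat, ornithine aminotransferase, stood at 452.4 CPM in that library against 2309 and 1971. Cyp2e1, the P450 that oxidises ethanol, showed a smaller gap, 11790 against 15400 and 14720 CPM, and a zone dependence of 0.96 (-0.94 to 2.85). Lgr5, a receptor that amplifies Wnt signals, stood at 8.72 to 13.2 CPM in fed PC and 7.37 to 24.1 in fasted PC, and at 0.36 to 0.85 in fed PP and 0.10 to 0.26 in fasted PP. The PP groups did not overlap, and its zone dependence was 1.79 (-0.05 to 3.62). Cyp27a1, a sterol hydroxylase, had the smallest p of the list with all libraries (0.58, interval 0.04 to 1.12). Of 12 Wnt targets tested, several of them pericentral markers, 10 had a zone dependence above 0, with a median of 0.32.

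Periportal markers changed the sign of their median with that library. Of 27 genes, 7 rose in PC and 6 in PP, and 1 fell in PP. Leaving out 1 library gave 4 to 10 rising genes in PC, the lowest without fed PC replicate 3, and 4 to 11 in PP, the highest without fasted PC replicate 1. The median zone dependence was 0.12 with all libraries and -0.31 without fasted PC replicate 1. That library is set apart by the high level of these same markers, so leaving it out lowers their summed level in fasted PC by construction. The values without it, p-values included, are a description with no weight as support. Hal, histidine ammonia-lyase, stood at 66.7, 84.8 and 112.9 CPM in fed PC and 578.9, 69.9 and 108.6 in fasted PC, and at 609.1 to 620.6 in fed PP and 1121 to 1429 in fasted PP. Fasted PP lay above fed PP without overlap, and in PC only replicate 1 lay above the fed libraries. Its zone dependence was 0.44 (95% interval -1.59 to 2.46) with all libraries and -1.09 (-1.74 to -0.43; unadjusted p = 0.0036, edgeR adjusted p = 0.50) without fasted PC replicate 1. Gls2, liver glutaminase, went from 0.39 to -0.78 (unadjusted p = 0.011) in the same way. Cyp2f2, a P450 of the portal zone, stood at 242.4 CPM in that library against 67.8 and 75.4, and its zone dependence went from 0.99 to 0.12. Apoa4, an apolipoprotein, stood at 222.1, 218.2 and 196.4 CPM in fasted PC and 1027 to 1806 in fasted PP, and had a zone dependence of -1.11 (interval -2.17 to -0.06), or -1.17 without it.

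**Figure D4:**
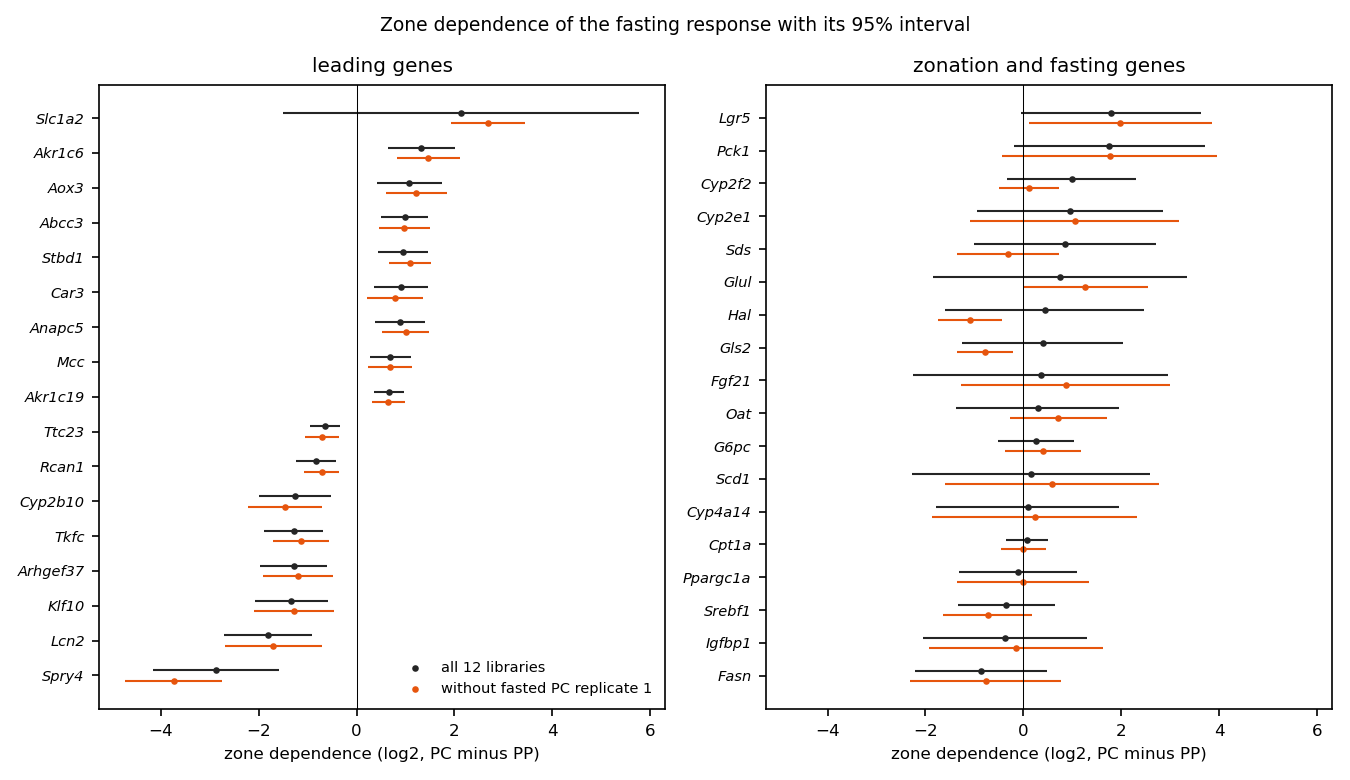
Zone dependence (x axis, log2, PC minus PP) with its 95% interval for the 17 leading genes (left) and 18 genes of zonation and fasting (right), over all 12 libraries (black) and without fasted PC replicate 1 (orange). The interval of Slc1a2 narrows from -1.50 to 5.78 to 1.94 to 3.43, and Hal moves from 0.44 to -1.09.

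Detoxification genes held higher medians in PC. Of 39 genes of xenobiotic metabolism, 4 rose and 2 fell in PC and 4 rose and 5 fell in PP, with medians of 0.20 and -0.45, and 29 had a zone dependence above 0. The 5 that fell in PP became 3 without fed PP replicate 1. Of 15 tested targets of Nrf2, the factor that answers oxidative stress, none was called in PC and 2 fell in PP (0 without fed PP replicate 3). Their medians were 0.21 and -0.47, the median zone dependence was 0.67, and 13 were above 0. Their summed level in fasted PC was 5802 CPM in replicate 2 against 2040 and 2924 in replicates 1 and 3, and 2358 to 2790 in fed PC, and the part of replicate 2 in these values was not tested. Several, such as glutathione transferases, are also xenobiotic genes with close paralogs. Txnrd1, thioredoxin reductase, had a zone dependence of 0.51 (95% interval 0.04 to 0.99), and 0.61 without fasted PC replicate 1. By unadjusted p under 0.05, 2 of the 15 passed with all libraries and 9 without fasted PC replicate 1, against 3.85% and 7.37% of all genes. That library, chosen by zone markers of these same data, held the lowest summed Nrf2 level in fasted PC (2040 CPM). Leaving it out raises the summed level there, so the 9 carry no weight as support. Genes of a list are also not separate tests. The bile acid list of 21 genes, Abcc3 and Akr1c6 among them, had 3 rising and 1 falling in PC and 2 rising and 3 falling in PP. The 3 rising became 1 without fed PC replicate 2, and the 3 falling 1 without fed PP replicate 3.

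Hormone, stress and clock lists held genes called in both zones. Of 19 genes of the insulin and FoxO1 response, 9 rose and 3 fell in PC and 10 rose and 3 fell in PP, with medians of 0.67 and 0.69. Igfbp1, an IGF-binding protein held down by insulin, rose by 3.21 in PC and 3.58 in PP (edgeR adjusted p = 0.0041 and 0.0030; interval of zone dependence -2.05 to 1.31). Pik3r1, the regulatory subunit of PI 3-kinase, fell, with log2 fold changes of -1.08 in PC and -0.54 in PP (0.00022 and 0.013), a zone dependence of -0.54 (interval -0.94 to -0.14). Of 18 glucocorticoid response genes, 11 rose in PC and 12 in PP, with medians of 1.28 and 1.76, and 5 had a zone dependence above 0. Of 24 genes of the endoplasmic reticulum and unfolded protein response, 17 fell in PC and 20 in PP and 1 rose in each, with medians of -0.90 and -0.96 (12 to 18 and 14 to 19 falling without 1 library). Of 21 autophagy genes, 8 rose in PC, and 4 rose and 2 fell in PP. Map1lc3b, the LC3 protein of autophagosome membranes, stood at 71.7, 65.3 and 63.1 CPM in fed PC and 140.2, 135.3 and 128.7 in fasted PC. It stood at 81.9, 72.9 and 65.5 CPM in fed PP and 108.8, 108.9 and 101.3 in fasted PP. It rose in both zones, further in PC, by 1.01 and 0.53 (edgeR adjusted p = 7.2e-05 and 0.0035), with a zone dependence of 0.48 (interval 0.17 to 0.79; unadjusted p = 0.0050). Of 18 clock genes, 6 rose and 3 fell in PC and 7 rose and 2 fell in PP. The rising ones became 2 in PC without fed PC replicate 2 and 1 in PP without fed PP replicate 2. Per2 fell, with log2 fold changes of -2.02 in PC and -1.48 in PP (0.00029 and 0.0018; interval -1.27 to 0.18).

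**Figure D5:**
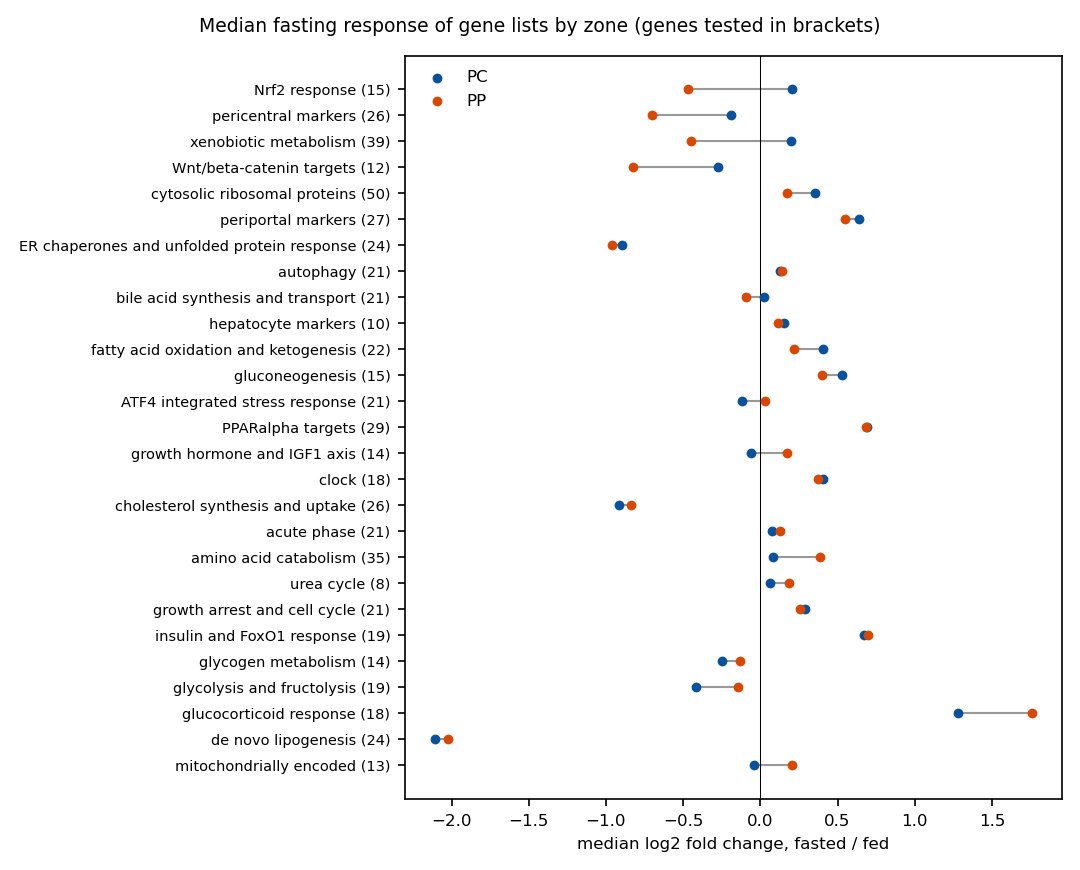
Median log2 fold change of fasting (x axis) in PC (blue) and PP (orange) for 27 gene lists (y axis, genes tested in brackets), ordered by median zone dependence from the lowest at the bottom to the highest at the top. De novo lipogenesis stands at -2.11 and -2.02, and pericentral markers stand at -0.19 in PC and -0.70 in PP.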

How the data were processed

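RNA was sequenced from 12 libraries made with a NEBNext Ultra kit, per the labels' protocols. The authors deposited estimated counts per gene. Per the submitters' processing notes these came from kallisto 0.46.0 and the build mm10, while the annotation and the handling of strand are not given in the sources used here. Reads of overlapping genes cannot be told apart. Of 28030 identifiers, 27566 matched a GENCODE M21 symbol on GRCm38.

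The deposited estimated counts were rounded. Genes were kept by filterByExpr and libraries scaled by trimmed means of M values. One model with 4 group means and 8 residual degrees of freedom was fitted with edgeR 4.0.16 (quasi-likelihood, robust) in R 4.3.3, with Benjamini-Hochberg adjustment over all genes and calls under 0.05. Intervals are the unshrunk log2 value and its standard error times the t quantile for 95%. There were 5 contrasts. limma 3.58.1 and DESeq2 1.42.0 were alternatives, beside other scaling, filters, a replicate block and leaving out libraries. The fits were tested on simulated data.

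The genes and 34 lists were chosen with earlier results of these data known. Named genes are those called with or without fasted PC replicate 1, the 8 of smallest unadjusted p per direction, both at 5 CPM or more, 18 anchors of zonation and fasting, the member of smallest p in each list, the 3 highest and 3 lowest called fasting changes per zone, and the narrowest intervals, without predicted models and pseudogenes. Some genes are not reported here. Libraries of a group differed by more than sampling noise (chi-square per degree of freedom 23.9 to 79.8).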

Additional observations from a re-analysis of the deposited data

Results flagged for a closer look

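Slc1a2 and Spry4 showed a difference between the zones in their response to fasting that passed the test of the difference itself when fasted PC replicate 1 was left out. The zone dependence was 2.69 for Slc1a2 and -3.74 for Spry4 (edgeR adjusted p = 0.034 for each). Without that library fasting raised Slc1a2 in PC and lowered it in PP, and lowered Spry4 in PC and raised it in PP. With all libraries edgeR called neither (2.14 and -2.88, unadjusted p = 0.22 and 0.00042). DESeq2 (adjusted p = 0.0015) and limma voom with sample quality weights (0.042) called Spry4 with all libraries. Slc1a2 is among the pericentral markers whose low level set that library apart, so its call is not independent of leaving the library out.

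With all libraries, Abcc3 was called in opposite directions by fasting in PC and PP. Fed and fasted libraries of either zone did not overlap, as in 41.7% of all genes in PC and 34.6% in PP. The PC call ended when any 1 of 10 libraries was left out, fasted PC replicate 1 among them. The PP call ended for any 1 of 7. The zone dependence of Abcc3 was 0.99 (unadjusted p = 0.00071, edgeR adjusted p = 0.997), so the edgeR test of the difference over all genes did not pass. DESeq2 called it (adjusted p = 0.042), but the gene was picked by its small p in these same libraries, so that call is no support.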

How the results depend on the processing

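The count of 0 genes called for zone dependence stayed 0 in edgeR with DESeq2 size factors, with a filter at 1 CPM, without the robust option, without rounding and with limma voom. It became 1 without a filter on low counts (1 higher), 1 when the 4 libraries numbered 1 were left out (1 higher; added after seeing the data), 1 with limma voom and sample quality weights (1 lower), and 11 with DESeq2 (5 higher and 6 lower). Leaving out each library gave 0 to 2 (0 to 1 higher and 0 to 1 lower). Genes called between the zones of fed mice numbered 1174 with sample quality weights and 929 with DESeq2, against 570. Leaving out each library gave 292 to 701 in fed mice, 386 to 1005 in fasted mice, 1593 to 2618 for fasting in PC and 1405 to 2414 in PP.

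A replicate block by number called 0 genes for zone dependence (510 unadjusted), as did a block within each feeding state (625) and a block without fasted PC replicate 1 (995; added after seeing the data). Deviations of same-numbered PC and PP libraries from their group means correlated at 0.27, 0.02 and 0.15 in fed and 0.19, -0.12 and 0.09 in fasted mice. Those of unlike number ran from -0.21 to 0.07 in fed and from -0.27 to 0.22 in fasted mice. With 3 libraries per group these values cannot settle whether the numbers pair the libraries, and the main fit used no pairing.

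Of 647 values of the zone dependence of 54 named genes under these alternatives, 614 kept their direction and side of the threshold, 9 passed it and 24 changed sign. With the block within feeding state the changed values were -0.24 for Cyp4a14, -0.035 for Gls2 and -0.17 for Hal, and with the block by number -0.11 for Scd1. With the block without fasted PC replicate 1 they were -0.010 for Cpt1a, -0.83 for Gls2, -1.14 for Hal and -0.44 for Sds. Without the 4 libraries numbered 1 they were -0.086 for Cpt1a, -0.031 for Cyp2f2, -0.35 for Cyp4a14, -0.68 for Gls2, -1.19 for Hal, 0.40 for Igfbp1 and -0.26 for Sds. With limma voom they were -0.25 for Cyp4a14, -0.046 for Fgf21, -0.033 for Gls2, -0.16 for Hal and -0.052 for Oat, and with sample quality weights -0.42 for Cyp4a14, -0.49 for Gls2, -0.69 for Hal and -0.069 for Sds. The cause was not tested. Leaving out each library in turn turned the sign of 11 genes. Their values ran from -0.079 to 0.17 for Cpt1a, -1.08 to 0.54 for Cyp4a14, -0.68 to 0.87 for Fgf21, -0.071 to 0.42 for G6pc, -0.78 to 0.80 for Gls2, -1.09 to 0.88 for Hal, -0.82 to 0.12 for Igfbp1, -0.090 to 0.71 for Oat, -0.45 to 0.41 for Ppargc1a, -0.35 to 0.64 for Scd1 and -0.32 to 1.28 for Sds. Depth limits genes under 1 CPM, where the median interval reached 1.92 log2 units to either side.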

Other observations

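In the ribosomal protein and mitochondrially encoded lists nearly all members had a zone dependence of 1 sign. So did the pericentral markers, with 25 of 26 above 0, and the urea cycle genes, with 1 of 8 above 0. Over all genes 52.3% were above 0, and genes of a list are not independent replicates. Of 50 cytosolic ribosomal protein genes, 3 rose in PC (0 to 17 without 1 library, the highest without fasted PP replicate 1) and 0 were called in PP, with medians of 0.36 and 0.18, and 48 had a zone dependence above 0. Of the 13 mitochondrially encoded genes none had a zone dependence above 0 (median -0.27), and none was called. mt-Atp8, a subunit of ATP synthase, stood at 661 ± 26.4 CPM in fed PC, 547 ± 76.0 in fasted PC, 751 ± 82.8 in fed PP and 872 ± 39.0 in fasted PP (SD, n = 3), a zone dependence of -0.49 (95% interval -0.87 to -0.11).

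Cux2 and Gadd45g had the smallest unadjusted p of the growth hormone and growth arrest lists, in which 2 of 14 and 1 of 21 genes had an unadjusted p under 0.05. Cux2, a transcription factor known for its female bias in liver, stood at 26.3, 23.6 and 23.7 CPM in fed PC and 28.8, 31.7 and 25.9 in fasted PC, and at 32.6, 36.7 and 28.9 in fed PP and 56.6, 80.5 and 52.0 in fasted PP. It rose by 0.95 in PP (edgeR adjusted p = 0.0017) and had 0.23 in PC, a zone dependence of -0.71 (95% interval -1.19 to -0.23; unadjusted p = 0.0071). Gadd45g, a growth arrest gene, rose by 4.10 in PC and 2.17 in PP (edgeR adjusted p = 0.0022 and 0.028), a zone dependence of 1.94 (interval 0.12 to 3.76). Its PP call ended without any 1 of 5 libraries (up to 0.087).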
